A study of Mus musculus with 18 samples.

Results

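The 8 genes described here handle lipid at the capillary wall of the mouse heart: Gpihbp1, Lpl, Cd36, Fabp4, Fabp5, Rbp7, Meox2 and Tcf15. They were chosen by name, as the 8 columns with these symbols out of 35808 genes (mitochondrial genes and spike-ins aside) in the count matrices of all samples. The choice was made with earlier results of these data known. All 8 are protein coding and all were detected, with total UMIs (unique molecular identifiers, 1 for each captured RNA molecule) over the series from 16269 for Meox2 to 1750865 for Lpl. In endothelial cells 7 of the 8 were higher than in cardiomyocytes (CMs), by 1.12 for Cd36 to 3.52 for Rbp7 on the log2 scale among those with UMIs in every group. Lpl was lower, by a log2 difference of -1.54. Within the endothelium, capillary-like cells had more of 7 members than endocardial-like cells, and less Fabp5.

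Circulating lipoproteins carry triglyceride that the heart burns as fatty acid. Lipoprotein lipase, the product of Lpl, is made by parenchymal cells such as CMs and adipocytes, and GPIHBP1 on capillary endothelium binds it and carries it to the lumen, where it releases fatty acids. CD36 takes up fatty acids at the cell surface, FABP4 and FABP5 bind them in the cytoplasm, and RBP7 is a retinol-binding protein of the same intracellular lipid-binding family. MEOX2, a homeodomain factor, and TCF15, a basic helix-loop-helix (bHLH) factor, form a heterodimer that drives fatty acid uptake genes in heart endothelium.

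Single cells from mouse hearts were sequenced on ICELL8 nanowell chips at P4, P7, P14 and P28, in 2, 2, 2 and 6 samples (1 chip each). The hearts of all groups carried Myh6/Esr1-Tomato, a tamoxifen-induced red label driven in CMs, and those of the 4 ages are labelled as wild type with respect to knockdown. A further 6 chips hold P28 hearts injected as pups with lentivirus encoding a hairpin against Jun (shJun) or a non-targeting hairpin (shNT), 2 animals each, whose cells the labels call mixed and the well reports tell apart by animal, with no mark of which cells took up virus. Hearts were cut and digested with a kit at P4 and P7 and perfused by the Langendorff method at P14 and P28, so stage and digestion cannot be told apart between these ages. The 2 chips of P4 name the same 2 animals, as do those of P7, so p-values measure the spread between chips, which may be technical.

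Chips held 11161784 to 133264535 UMIs, and 12829 of 15993 wild-type cells and 6993 of 7482 knockdown cells passed the filters. Of 5051 distinct well barcodes, 4890 occurred in at least 2 samples, since every chip uses the same set. Cells were clustered without the 8 genes, and clusters were named from marker genes as EC-like (656, 777, 465 and 766 cells at P4, P7, P14 and P28), CM-like, fibroblast-like, macrophage-like and others. All 9 endothelial markers were found in the EC-like sums of every stage, and at 2764 to 5872 CPM (UMIs of a gene or list per 1000000 UMIs of the cells of 1 class in 1 sample, for sums of at least 20 cells) together, against 180 to 1589.5 in CM-like sums. Other cells' markers were also counted in EC-like cells: the 8 CM markers, none of them at 0, summed to 1189.65 to 20252 CPM there, against 43935 to 101587 in CM-like cells, and their part in the results below was not tested.  Levels in CPM are not set per gene length, and so are compared between classes and stages, not between genes. At P28, EC-like sums came from replicates 1, 2, 4 and 6, with only 40 cells in replicate 1, a chip of the CM fraction. CM-like sums came from replicates 1, 3 and 5 at P28, and at P7 from 1 sum of 21 cells. Replicates 2, 4 and 6 of P28 held 6, 6 and 10 CM-like cells, and replicates 3 and 5 held 3 and 5 EC-like cells. Only replicate 1 thus gave sums of both classes at P28, so class and chip can hardly be told apart at that stage. The CM markers in EC-like cells summed to 18156 CPM in replicate 1 and to 1189.65 to 3269 in replicates 2, 4 and 6.

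In the mouse genome (GRCm38), Gpihbp1 lies at chr15:75596628-75599481 on the plus strand, Lpl at chr8:68880491-68907448 on the plus strand and Cd36 at chr5:17781690-17888801 on the minus strand. Fabp4 (chr3:10204088-10208576, minus) and Fabp5 (chr3:10012548-10016607, plus) are near neighbours. Rbp7 lies at chr4:149449687-149454978 on the minus strand, Meox2 at chr12:37108540-37179534 on the plus strand and Tcf15 at chr2:152143561-152149097 on the plus strand. Fabp5 has several near-identical pseudogene copies that can share its reads, so its counts are less certain than the others.

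Promoters of 3 of the 8 genes, Cd36, Meox2 and Rbp7, were found in the RefSeq table (GRCm38.p6), and are shown for that reason. Each runs from 250 bases before to 50 bases after the start that the RefSeq table gives, on the gene's own strand, with matches to the E-box CANNTG (a palindrome, the motif that bHLH factors bind) in capitals. Cd36 is read from chr5:17835847-17836146 (minus), Meox2 from chr12:37108290-37108589 (plus) and Rbp7 from chr4:149454919-149455218 (minus). The start used for Cd36 lies 52905 bases inside the gene as given above, so its window is not that of the gene's outermost start.
Cd36: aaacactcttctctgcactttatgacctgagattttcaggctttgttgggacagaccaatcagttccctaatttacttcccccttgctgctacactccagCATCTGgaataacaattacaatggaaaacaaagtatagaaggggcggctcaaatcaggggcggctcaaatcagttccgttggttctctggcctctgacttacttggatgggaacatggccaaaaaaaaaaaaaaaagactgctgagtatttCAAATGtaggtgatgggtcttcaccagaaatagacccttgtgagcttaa
Meox2: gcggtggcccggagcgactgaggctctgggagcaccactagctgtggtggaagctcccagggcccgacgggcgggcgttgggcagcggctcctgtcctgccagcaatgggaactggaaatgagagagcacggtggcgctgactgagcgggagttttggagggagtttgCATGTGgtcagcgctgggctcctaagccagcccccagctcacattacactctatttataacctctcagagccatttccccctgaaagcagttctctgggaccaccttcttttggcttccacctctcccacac
Rbp7: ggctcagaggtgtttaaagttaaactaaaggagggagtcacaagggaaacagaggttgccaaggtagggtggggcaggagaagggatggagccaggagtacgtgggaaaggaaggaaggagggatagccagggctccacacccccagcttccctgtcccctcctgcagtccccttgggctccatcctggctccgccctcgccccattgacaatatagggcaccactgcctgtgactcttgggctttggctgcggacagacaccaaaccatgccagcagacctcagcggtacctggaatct
The Cd36 window held 2 E-boxes and the Meox2 window 1, and the Rbp7 window held none. Of 32851 mouse promoters of the same length 72.3% held at least 1 E-box, so a match is common. The other motifs searched on both strands were TAATTA (a homeodomain core, in 5.29% of promoters), CCAAT (37.4%), TATAAA (13.6%) and the DR1 direct repeat that PPAR and RXR bind (0.0396%). CCAAT matched in the Cd36 window and TATAAA in the Meox2 window, and no window held TAATTA or the DR1 repeat. A match is a description of letters and no evidence of binding.

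The first comparison asked where in the heart each gene is expressed, with EC-like sums set against CM-like sums over 4 stages in edgeR's quasi-likelihood test (41 class sums, 19967 genes, Benjamini-Hochberg adjustment over all genes, threshold 0.05). All 8 members differed, 7 higher and 1 lower in EC-like cells, where 18.3% of all genes differed and 10.6% were higher. The members' median log2 difference was 2.96, beside 0.48 for all genes. The endothelial markers Cdh5, Pecam1 and Kdr, given as a yardstick, differed by 2.48, 3.23 and 3.15. Unlike the members, they were not kept out of clustering and helped to name the EC-like clusters, so their direction was set by the naming.

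**Figure D1:**
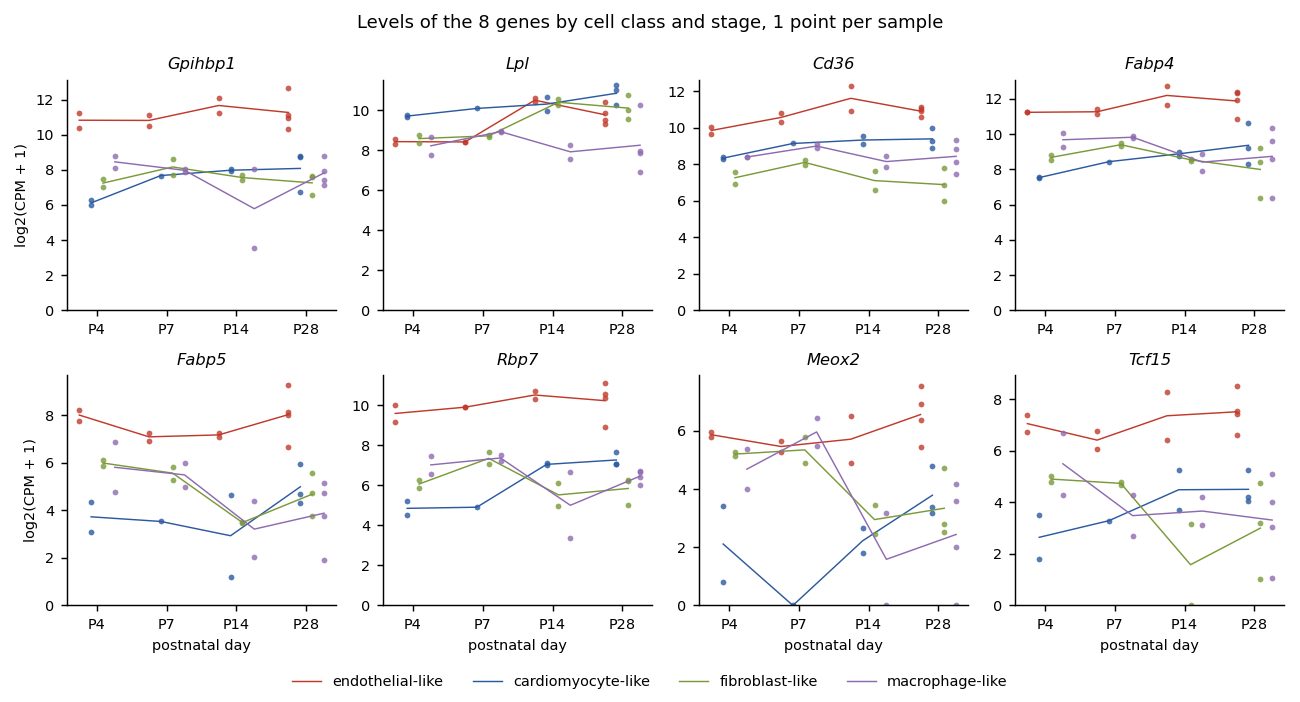
Level of each gene as log2(CPM + 1) against stage, 1 point for each class sum in a sample and a line through the stage means, for EC-like, CM-like, fibroblast-like and macrophage-like cells. For 7 genes the EC-like points lie above the CM-like points at each stage, while for Lpl the CM-like points lie above the EC-like points at P4 and P7 and overlap them at P14 and P28.

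Gpihbp1 encodes the endothelial carrier of lipoprotein lipase. In EC-like cells it stood at 1353 and 2419 CPM (P4), 1467 and 2195 (P7), 2419 and 4328 (P14) and 1302, 2009, 2181 and 6391 (P28). In CM-like cells it stood at 61.6 and 75.6 (P4), 203 (P7), 260.3 and 241 (P14) and 435, 104 and 429.9 (P28). The lowest EC-like sum was above the highest CM-like sum, and P28 replicate 6 was the highest of all. The log2 difference was 3.15 (SE 0.456, adjusted p = 1.78e-06).

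Lpl encodes the lipase itself and was the 1 member with the opposite direction. In CM-like cells it stood at 858 and 808 CPM (P4), 1085 (P7), 989 and 1609 (P14) and 2039, 2475 and 1226 (P28). In EC-like cells it stood at 313 and 376 (P4), 344 and 335 (P7), 1341 and 1557 (P14) and 1369, 638, 718 and 931 (P28). The groups were apart at P4 and P7, EC-like values lay within the CM-like range at P14, and at P28 EC-like replicate 1 lay above CM-like replicate 5. The log2 difference was -1.54 over the stages (SE 0.295, adjusted p = 0.000139). Stage by stage it was -1.83, -2.004, -0.53 and -1.81, and of these the P28 value passed the test (adjusted p = 0.00768). These values, like the other fit values, come from sums rescaled by edgeR (TMM). CPM are not rescaled, so the fit and the CPM need not match. At P14 the mean CM-like CPM was 89.6% of the EC-like one, beside the fit value of -0.53. In P28 replicate 1, the only chip with both sums at that stage, Lpl stood at 1369 in EC-like and 2039 in CM-like cells.

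Cd36 encodes the fatty acid translocase, which muscle and endothelium both use, and had the smallest difference. EC-like cells had 799 and 1062 CPM (P4), 1819 and 1259 (P7), 1959.6 and 4989.7 (P14) and 1519, 1940.2, 2228 and 2077 (P28). CM-like cells had 335 and 310.2 (P4), 562 (P7), 553 and 742 (P14) and 1013, 624 and 476 (P28). At every stage the EC-like sums lay above the CM-like sums. The log2 difference was 1.12 (SE 0.26, adjusted p = 0.00144).

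The cytoplasmic lipid-binding proteins were higher in EC-like cells too. Fabp4 stood at 2411 and 2394 CPM (P4), 2706 and 2227 (P7), 3208 and 6793 (P14) and 3904, 5362, 5109.7 and 1857 (P28) in EC-like cells. In CM-like cells it stood at 188 and 179 (P4), 344 (P7), 434 and 506 (P14) and 1559, 588 and 309 (P28). The groups did not overlap, the nearest pair being EC-like replicate 6 and CM-like replicate 1 of P28, and the log2 difference was 2.48 (SE 0.383, adjusted p = 6e-06). Fabp5 ranged from 99.7 to 613 CPM in EC-like sums and from 1.31 to 60.9 in CM-like sums, with a log2 difference of 3.02 (SE 0.545, adjusted p = 6.45e-05). Rbp7 ranged from 484 to 2196 in EC-like sums and from 21.6 to 203 in CM-like sums, with a log2 difference of 3.52 (SE 0.44, adjusted p = 1.73e-07).

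The 2 regulators separated the classes too. Meox2 stood in EC-like cells at 54.0 and 61.0 CPM (P4), 37.8 and 49.0 (P7), 28.9 and 91.0 (P14) and 81.4, 119.6, 42.2 and 184 (P28). In CM-like cells it stood at 0.765 and 9.57 (P4), 0 (P7), 2.48 and 5.26 (P14) and 26.5, 8.12 and 9.49 (P28). The difference passed the test (adjusted p = 0.000135), with log2 values of 2.80 at P4, 3.23 at P14 and 2.21 at P28. At P7 the level of 43.7 was at least 16.6-fold higher than the limit of 2.63 that a count of 0 allows (3 UMIs in that sum). Tcf15 ranged from 65.4 to 362 in EC-like sums and from 2.45 to 37.4 in CM-like sums, with a log2 difference of 2.90 (SE 0.588, adjusted p = 0.000297).

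Tested stage by stage, with fewer sums behind each value, 5 members passed at P4 (Gpihbp1, Fabp4, Fabp5, Rbp7 and Tcf15; 2.08% of all genes did), 1 at P7 (Rbp7; 0.3%), none at P14 (0.491%) and 4 at P28 (Gpihbp1, Lpl, Fabp5 and Rbp7; 6.21%). At P14 the 7 positive differences ranged from 1.65 for Cd36 to 3.23 for Meox2, with adjusted p from 0.0669 for Gpihbp1 to 0.277 for Tcf15.

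Against fibroblast-like cells, the interstitial cells that make collagen, 7 members were again higher in EC-like cells, where 9.58% of all genes differed and 4.96% were higher. The log2 differences were 3.61 for Gpihbp1, 3.33 for Cd36, 2.90 for Fabp4, 2.70 for Fabp5, 3.83 for Rbp7, 3.29 for Tcf15 and 1.73 for Meox2 (adjusted p = 0.0199, the others at 3.12e-05 or below). Lpl did not pass (-0.20, SE 0.277, adjusted p = 0.846). Its levels in fibroblast-like cells were 331 and 439 CPM (P4), 407 and 432 (P7), 1219 and 1483 (P14) and 1729, 1029 and 744 (P28), overlapping those of EC-like cells at P4, P14 and P28. Meox2 was the member nearest to fibroblast-like levels at P7, with 54.7 and 28.7 there beside 37.8 and 49.0 in EC-like cells. The Meox2 call was lost without any 1 of P4 replicates 1 and 2, P7 replicates 1 and 2 or P14 replicate 2 (adjusted p from 0.0513 to 0.120). The members' median was 3.10, beside 0.07 for all genes.

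Against macrophage-like cells 7 members were higher, where 13.8% of all genes differed and 8.38% were higher. The log2 differences ran from 1.88 for Meox2 (adjusted p = 0.0081) through 2.11 for Cd36 and 2.24 for Fabp4 to 3.22 for Gpihbp1 and 3.27 for Rbp7, and the members' median was 2.44, beside 0.29 for all genes (0.176 with DESeq2's size factors). The Meox2 call was lost without P14 replicate 2 (adjusted p = 0.0534) or P7 replicate 1 (adjusted p = 0.0539). Lpl differed by 0.69 (SE 0.276, adjusted p = 0.0948), and by 0.88 without P28 replicate 1 (adjusted p = 0.00228). Stage by stage, no member passed at P4 (2.24% of all genes did) or at P7 (1.06%), and 7 passed at P14 (all but Meox2; 5.07%) and 7 at P28 (all but Lpl; 6.06%). At P7 Lpl stood at 489 and 481 CPM in macrophage-like cells, above both EC-like sums (344 and 335), and Meox2 at 44.0 and 85.4 beside 37.8 and 49.0. At P14 Lpl was higher in EC-like cells by 2.36 (SE 0.616, adjusted p = 0.0165), at 1341 and 1557 CPM beside 306 and 189 in macrophage-like cells. Class sums of 1 chip share that chip, and with the sample as a block Lpl passed over the stages (0.81, SE 0.175, adjusted p = 0.00175). Mural-like cells had sums at P4 and P7 only and were not tested. Their mean level, as a percent of the EC-like one, was 50.9% and 92.6% for Fabp5 and 83.0% and 78.0% for Meox2. It was 27.8% and 52.6% for Tcf15 and 92.3% and 92.6% for Lpl. Gpihbp1, Cd36, Fabp4 and Rbp7 lay between 9.73% (Gpihbp1 at P4) and 31.9% (Fabp4 at P7).

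**Figure D2:**
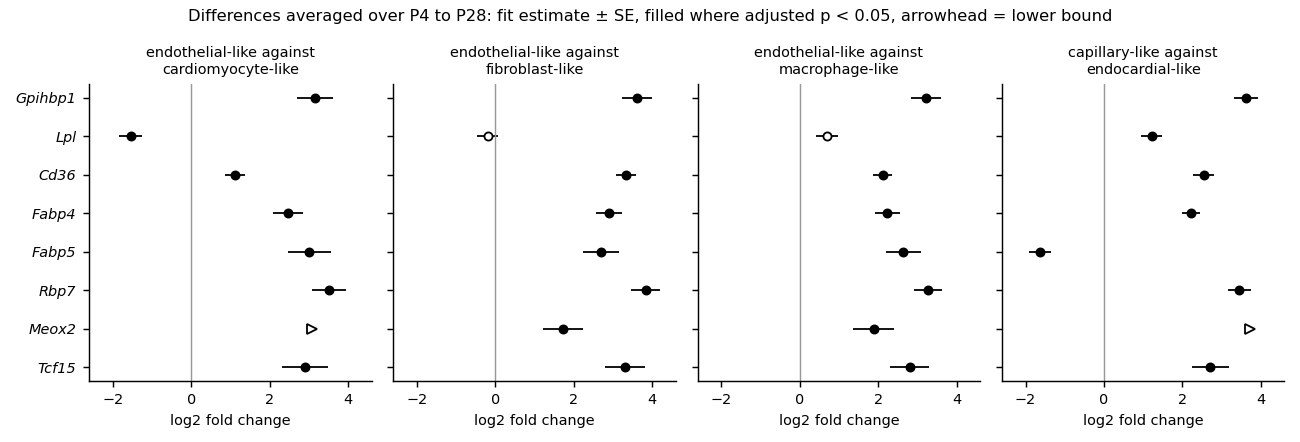
Log2 difference of each gene between EC-like cells and CM-like, fibroblast-like or macrophage-like cells, and between capillary-like and endocardial-like cells, from the edgeR fits, with bars of 1 SE and filled points where the adjusted p passed 0.05. An arrowhead marks the lower bound for Meox2, drawn at 3.07 against CM-like and 3.72 against endocardial-like cells, and Lpl lies below 0 against CM-like cells and Fabp5 below 0 against endocardial-like cells.

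Shares of cells with at least 1 UMI were compared after each cell was thinned to 1000 UMIs, since depth differed. At P28, with medians of 7209.5 UMIs per EC-like, 8611 per CM-like, 10417 per fibroblast-like and 6243 per T cell-like cell, 65.5% of EC-like cells had a Gpihbp1 UMI (exact 95% interval 62.0 to 68.9). The share was 18.3% (16.7 to 19.9) in CM-like, 10.7% for fibroblast-like and 13.7% for macrophage-like cells. T cell-like cells, which should lack the gene, showed 15.1% (10.6 to 20.6), near the CM-like, fibroblast-like and macrophage-like shares. They came mainly from replicates 2, 4 and 6 (120, 24 and 46 cells). CM-like cells came from replicates 1, 3 and 5 (894, 611 and 672 cells). Most T cell-like cells were thus from other chips, and the background of Gpihbp1 in CM-like cells was not tested. Without thinning the Gpihbp1 shares were 84.1% in EC-like, 48.4% in CM-like, 39.4% in fibroblast-like and 44.2% in T cell-like cells.

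For Lpl the order differed: 73.0% of CM-like cells (71.0 to 74.8), 51.9% of fibroblast-like cells (48.2 to 55.5), 37.5% of EC-like cells (34.1 to 41.1), 28.8% of T cell-like cells (22.8 to 35.4) and 17.5% of macrophage-like cells had an Lpl UMI at P28. The EC-like interval overlapped the T cell-like one in part. Overlap of intervals is no test, and whether Lpl in EC-like cells exceeded background at P28 was not tested. Without thinning the Lpl shares were 94.9% in CM-like, 85.0% in fibroblast-like, 71.0% in EC-like and 58.1% in T cell-like cells. Per sample, Lpl in T cell-like sums stood at 1761, 686, 128 and 80.3 CPM in P28 replicates 1, 2, 4 and 6. EC-like sums were lower than these in replicates 1 and 2 and higher in replicates 4 and 6. Replicate 1, the CM fraction, was also the highest for Lpl in EC-like cells (1369) and in macrophage-like cells (1230.2). Intervals cover counting error only.

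**Figure D3:**
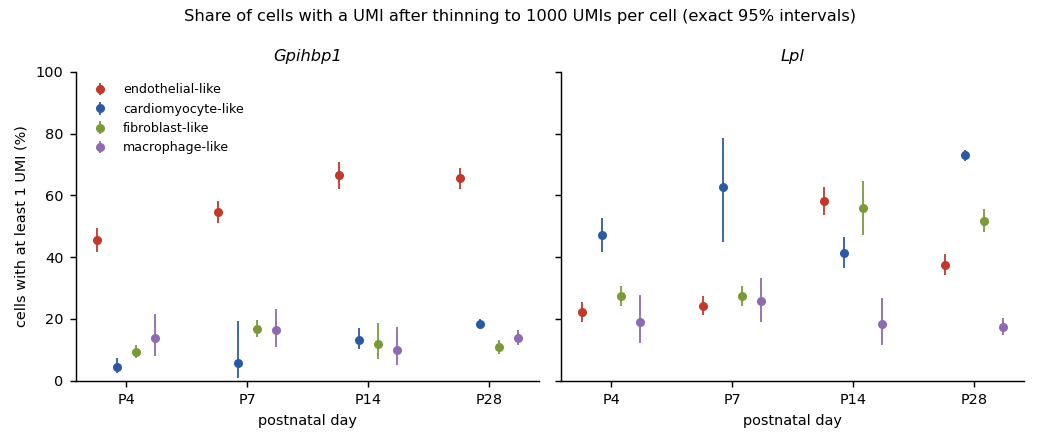
Percent of cells with at least 1 UMI of Gpihbp1 or Lpl after thinning each cell to 1000 UMIs, by class and stage, with exact 95% binomial intervals. Gpihbp1 at P28 is at 65.5% in EC-like cells and at 10.7% to 18.3% in the other classes, while Lpl at P28 is at 73.0% in CM-like and 37.5% in EC-like cells.

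How far CM-like cells held these transcripts was described by their level as a percent of the EC-like level at the same stage, beside the same for the endothelial markers Cdh5, Pecam1 and Kdr. These are a yardstick and not a measure of background alone, since whether CMs express some of them was not tested, and Cdh5 reached 25.7% at P28. At P4, P7, P14 and P28 Gpihbp1 stood at 3.64%, 11.1%, 7.43% and 10.9%, against a marker range of 3.06% to 7.08%, 2.56% to 11.03%, 6.98% to 10.1% and 18.6% to 28.4%. Fabp4 stood at 7.64%, 14.0%, 9.40% and 20.2%, and Rbp7 at 3.58%, 3.04%, 8.91% and 11.4%. These 3 genes were thus near the endothelial markers in CM-like cells, and Gpihbp1 and Rbp7 were below them at P28. Cd36 stood at 34.6%, 36.5%, 18.6% and 36.3%, above the marker range at every stage. Lpl stood at 242%, 320%, 89.6% and 209%. Fabp5 (5.25% to 11.1%), Tcf15 (4.70% to 12.5%) and Meox2 (0% to 13.8%) stayed within or near the marker range or below it.

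**Figure D4:**
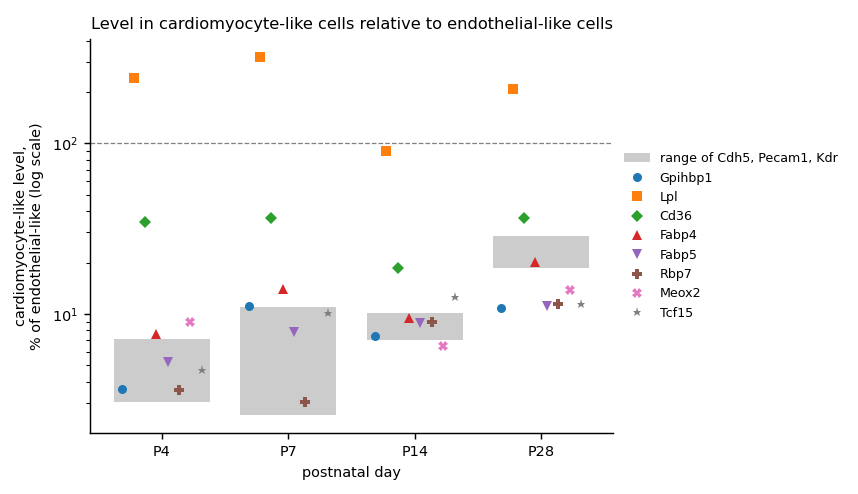
Level in CM-like cells as a percent of the level in EC-like cells (log axis) for each gene by stage, with a grey band from the lowest to the highest of Cdh5, Pecam1 and Kdr. Lpl and Cd36 lie above the band at every stage (Lpl at 209% and Cd36 at 36.3% at P28), and Meox2 at P7, at 0, is not drawn.

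The second question was whether the program changed in endothelium from P4 to P28. The make-up of the EC-like cells differed by stage. Endocardial-like cells were 162 of 656 at P4, 51 of 777 at P7, 42 of 465 at P14 and 88 of 766 at P28. A further group of EC-like cells, led by cell cycle genes, held 157 cells at P4 and 197 at P7. The part of this make-up in the stage values was not tested. In the fit of 10 EC-like sums and 15322 genes, no member passed between P4 and P7, where edgeR called 0% of genes (555 genes had an unadjusted p under 0.05, and DESeq2 called 38). From P7 to P14, where 0.411% of genes were called, Lpl rose by 2.42 on the log2 scale (SE 0.478, adjusted p = 0.0399), from 344 and 335 to 1341 and 1557 CPM. The other 7 members differed by 0.43 for Fabp5 to 1.42 for Cd36, the latter with an adjusted p of 0.202. The share of EC-like cells with an Lpl UMI after thinning was 22.2%, 24.1%, 58.3% and 37.5% at P4, P7, P14 and P28, while in macrophage-like cells it was 19.1%, 25.7%, 18.2% and 17.5%.

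The Lpl rise rested on few chips: without P4 replicate 1 or 2, P7 replicate 1 or 2, or P14 replicate 1 or 2 its adjusted p was between 0.0726 and 0.442, with log2 values from 2.27 to 2.55. The CM markers summed to 11909 to 14758 CPM in the EC-like cells of P7 and to 16765 to 20252 at P14, the 8 mural markers to 293 to 298 and 827 to 1254, and the 5 adipocyte markers to 1.89 to 1.93 and 0.723 to 1.16. Fibroblast markers summed to 1599 to 1674 at P7 and 359 to 1133 at P14, macrophage markers to 64.7 to 105.7 and 27.8 to 38.8, and the 5 erythroid markers to 6649 to 10677 and 10442 to 110765. The sums of CM and mural markers were thus higher at P14, as Lpl was, and those of fibroblast and macrophage markers lower. Their part was not tested. In fibroblast-like cells Lpl stood at 407 and 432 at P7 and at 1219 and 1483 at P14, a difference with no test here.

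From P14 to P28, where 0.0131% of genes were called, no member passed, and Lpl differed by -0.997 (SE 0.381, adjusted p = 0.421). Between P4 and P28, where 0.979% were called, all 8 values were positive, from 0.39 for Fabp5 to 1.53 for Lpl (SE 0.423, adjusted p = 0.103), and none passed. Gpihbp1 differed by 0.78 (SE 0.548), Cd36 by 1.16 (SE 0.398, adjusted p = 0.199), Fabp4 by 0.84 (SE 0.417) and Meox2 by 1.001 (SE 0.581). At P28 the 4 sums spread widely, with Gpihbp1 from 1302 to 6391 and Rbp7 from 484 to 2196, highest in replicate 6 for both, while Fabp4 was lowest in replicate 6 (1857). Erythroid markers in these EC-like cells summed to 783 to 817 CPM at P4 and 22222 to 126347 at P28, also highest in replicate 6, and their part was not tested. The all-gene median of P28 against P4 was 0.008 and 0.107 with DESeq2's size factors.

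In CM-like cells 2 members passed at P14 against P4, where 3.14% of genes were called: Gpihbp1 rose by 2.57 (SE 0.578, adjusted p = 0.019) and Rbp7 by 2.88 (SE 0.527, adjusted p = 0.00515). These fit values come from rescaled sums and are larger than the change in CPM. Mean CPM at P4 and P14 were 68.6 and 250.7 for Gpihbp1, and 28.7 and 131 for Rbp7. With cells called one by one neither passed (Gpihbp1 1.31, adjusted p = 0.191, and Rbp7 1.19, adjusted p = 0.139), whereas Lpl (2.30, adjusted p = 0.0152) and Cd36 (2.004, adjusted p = 0.0213) did, where 4.19% of genes were called. That setting left no EC-like sum, so its CM-like sums may hold cells clustered as EC-like. At P28 against P4, where 3.73% were called, Gpihbp1 rose by 2.38 (adjusted p = 0.0168), Fabp4 by 2.33 (adjusted p = 0.0248) and Rbp7 by 2.63 (adjusted p = 0.00472). The endothelial markers rose alongside, Cdh5 by 2.504 (adjusted p = 0.00664), Pecam1 by 2.89 (adjusted p = 0.0157) and Kdr by 2.55 (adjusted p = 0.0143), and the 9 endothelial markers in CM-like cells summed to 180 to 216 CPM at P4 and 549.8 to 1589.5 at P28, none of them at 0. At P14 these 9 markers summed to 438 and 319 CPM, also above P4. Their part in the rise was not tested. The make-up of the CM-like cells differed by stage too. At P4, 232 of them lay in a cluster led by Sln, Myl7 and Nppa and 99 in a cluster led by Ttn, Ryr2 and Mhrt. No CM-like cluster of P14 or P28 had Sln, Myl7 or Nppa in its top 10 genes. The part of this make-up in the stage values of CM-like cells was not tested. Without P28 replicate 1, the sum with the most Cdh5 (380.1, beside 151 and 147), Fabp4 no longer passed (1.67, adjusted p = 0.0728). Without P4 replicate 1 no member passed in either contrast, with adjusted p for Gpihbp1 of 0.228 at P28, and without P4 replicate 2 Rbp7 at P28 was the 1 call left. Lpl, the member that CMs make themselves, differed by 1.47 at P28 (SE 0.511, adjusted p = 0.122).

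Whether the classes changed differently was tested as the EC-like to CM-like difference at P28 less that at P4. No member passed and edgeR called 0% of genes (1083 with an unadjusted p under 0.05, and 14 by DESeq2). The values ran from -1.80 for Rbp7 (SE 0.864) to 0.02 for Lpl (SE 0.733), with an all-gene median of -0.119, or -0.028 with DESeq2's size factors.

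The third comparison divided the endothelium itself, with sub-clusters named from markers as capillary-like (such as Car4 and Rgcc) and endocardial-like (such as Npr3 and Cytl1). The sub-clusters were cut from these same cells without the members. The capillary-like names rest on weak scores: the mean log2 fold of the capillary markers over the other EC-like cells was 0.69, 0.40, 0.94 and 0.46 at P4, P7, P14 and P28, against 1.92 to 2.72 for endocardial-like sub-clusters. At P7 the lymphatic markers scored higher (0.51), though none of them was found in 20% of cells, and the top 10 genes held 1 marker each of capillary (Rgcc), lymphatic (Ccl21a) and arterial (Dll4) endothelium. At P14 and P28 they held no capillary marker. In 9 capillary-like and 7 endocardial-like sums of 23 to 183 cells (14905 genes), all 8 members passed, 7 higher and Fabp5 lower in capillary-like cells, where 4.36% of all genes differed and 2.36% were higher. The members' median was 2.63, beside 0.37 for all genes (0.259 with DESeq2's size factors). Without the sub-clusters of P7 and P28 all 8 still passed in the same directions, where 2.58% of all genes differed, with Gpihbp1 at 3.96, Lpl at 1.49 and Fabp5 at -1.67.

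Gpihbp1 showed the widest gap among the members with UMIs throughout. In capillary-like cells it stood at 1782 and 3041 CPM (P4), 2137 and 2754 (P7), 3487 and 5133 (P14) and 2129, 2823 and 7852 (P28). In endocardial-like cells it stood at 104 and 302 (P4), 360.1 and 787 (P7), 165 (P14) and 224 and 173 (P28). No value of 1 group reached the other, and the log2 difference was 3.62 (SE 0.314, adjusted p = 3.66e-11). Rbp7 differed by 3.45 (SE 0.296, adjusted p = 2.99e-11), from 747 to 2516 CPM in capillary-like sums and from 22.9 to 276 in endocardial-like sums. Cd36 differed by 2.54 (SE 0.27, adjusted p = 6.36e-09) and Fabp4 by 2.21 (SE 0.227, adjusted p = 2.93e-09). All 4 also passed at P4, P7, P14 and P28 tested separately, where 0.503%, 0.644%, 0.731% and 0.912% of all genes were called.

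Fabp5 went the other way from Fabp4, its close relative. In endocardial-like cells it stood at 339 and 531 CPM (P4), 285 and 261 (P7), 469 (P14) and 551 and 858 (P28). In capillary-like cells it stood at 195 and 157 (P4), 123 and 156 (P7), 162 and 121 (P14) and 228, 121 and 89.8 (P28). The groups did not overlap, and the log2 difference was -1.64 (SE 0.284, adjusted p = 0.000107).

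Lpl was higher in capillary-like cells by 1.22 (SE 0.261, adjusted p = 0.00221), and the call was lost without P14 replicate 1 (0.91, adjusted p = 0.0658). It stood there at 371 and 482 CPM (P4), 332 and 459 (P7), 1930.0 and 1567 (P14) and 373, 804 and 771 (P28). In endocardial-like cells it stood at 246 and 204 (P4), 271 and 182 (P7), 339 (P14) and 289.6 and 342 (P28). The groups were apart within each stage, most so at P14, where there was 1 endocardial-like sum.

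Of the regulators, Tcf15 differed by 2.71 (SE 0.468, adjusted p = 0.000101), at 89.7 to 339 CPM in capillary-like sums and 7.06 to 88.7 in endocardial-like sums. Meox2 passed too (adjusted p = 0.000137). It was not counted in the endocardial-like cells of P14, where the capillary-like level was at least 19.5-fold higher than 3 UMIs would give. At P28 the endocardial-like cells held 2 Meox2 UMIs, and the ratio was 92.8 with a counting interval of 25.5 to 769.

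**Figure D5:**
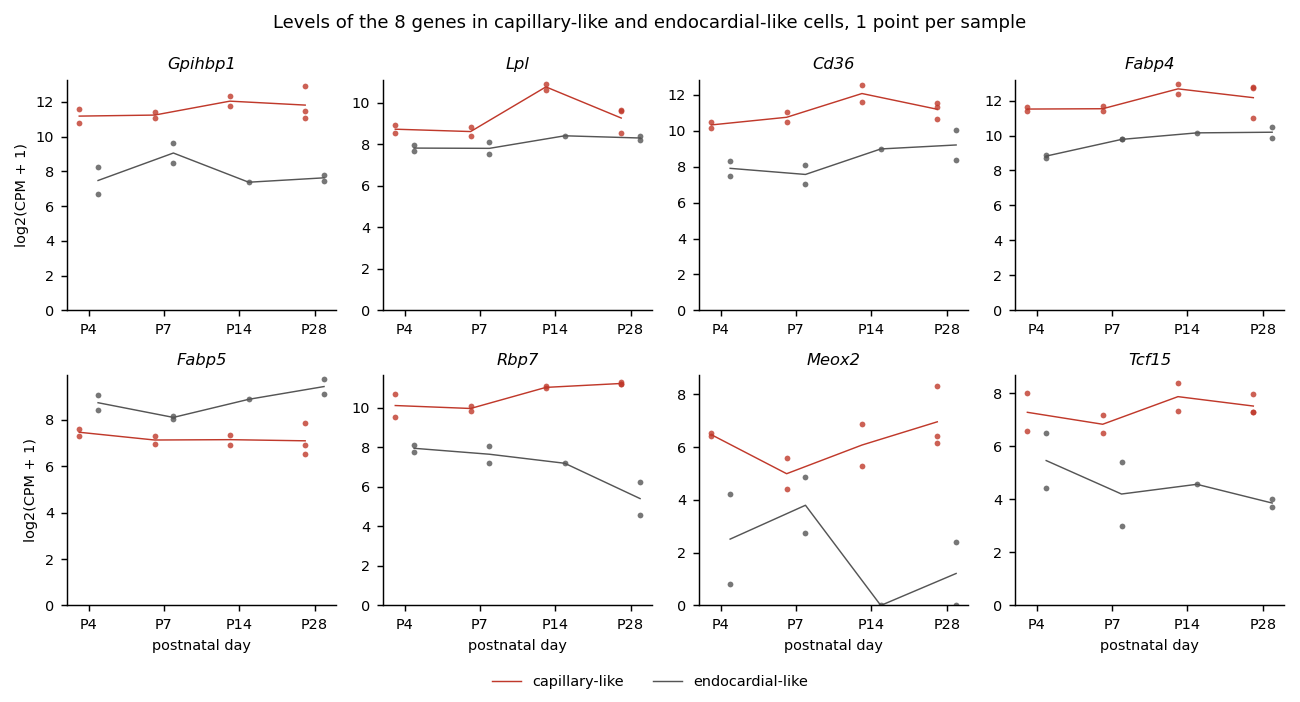
Level of each gene as log2(CPM + 1) against stage in capillary-like and endocardial-like cells, 1 point for each sum in a sample and lines through the stage means. Capillary-like points lie above endocardial-like points at each stage for Gpihbp1 (3487 and 5133 against 165 at P14) and below them for Fabp5 (162 and 121 against 469).

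The members' patterns were compared across the 41 class sums, which share chips and depth, as Pearson's r of log2(CPM + 1), given as a description. Against the members' mean standardized pattern, r was 0.946 for Fabp4, 0.923 for Rbp7, 0.907 for Gpihbp1, 0.858 for Tcf15, 0.848 for Cd36, 0.830 for Fabp5 and 0.805 for Meox2. Each member is part of that mean, which raises its own r beside that of genes outside the set. Lpl stood apart at 0.255, rank 3937 of 17959 genes. The 5 genes outside the set with the most similar pattern were Cdh5 (0.936), Adgrf5 (0.934), Cav1 (0.929), Flt1 (0.917) and Kitl (0.912). Between members, Gpihbp1 and Rbp7 were the most alike (0.91), followed by Cd36 and Fabp4 (0.85), while Gpihbp1 and its partner Lpl had an r of 0.17.

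Other genes of lipolysis and lipoprotein receptors split between EC-like and CM-like cells, where 18.3% of all genes differed and 10.6% were higher. Of 11 tested, 2 were higher in EC-like than in CM-like cells, Mgll (monoglyceride lipase, 1.72, adjusted p = 7.43e-06) and Scarb1 (the HDL receptor, 1.69, adjusted p = 0.0205), and 2 were lower, Vldlr (the VLDL receptor, -3.51, adjusted p = 1.77e-05) and Pnpla2 (adipose triglyceride lipase, -1.48, adjusted p = 0.0136). The list's median was 0.37, beside 0.48 for all genes, and the Scarb1 call was lost without P4 replicate 2 (adjusted p = 0.0549). Against endocardial-like cells 2 of 10 were higher in capillary-like cells, Mgll by 1.82 (adjusted p = 7.28e-06) and Scarb1 (adjusted p = 0.00186, with 3 UMIs in the endocardial-like cells of P7 and of P14, so no fold is given). The lowest value there was that of Lmf1, -1.17 (adjusted p = 0.488). Of all genes 4.36% differed in that comparison and 2.36% were higher.

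Of 13 genes of fatty acid entry, binding and activation, 3 were higher in EC-like cells and 5 lower, where 18.3% of all genes differed and 10.6% were higher. The caveolins Cav1 (2.69, adjusted p = 5.47e-06) and Cav2 (2.91, adjusted p = 4.56e-05), which coat membrane pits of endothelium, were higher. So was the acyl-CoA synthetase gene Acsl5 (adjusted p = 0.018), with 1 UMI in the CM-like sum of P7 and so no fold, and not without that sum (adjusted p = 0.423). Lower were Slc27a1 (fatty acid transport protein, -3.35, adjusted p = 0.00037), Fabp3 (the heart fatty acid-binding protein, -3.02, adjusted p = 6.69e-07), Acsl1 (-2.90, adjusted p = 2.15e-06), Got2 (-2.34, adjusted p = 3.22e-05) and Dbi (-1.32, adjusted p = 3.23e-05). The highest value, 3.79 for Slc27a3, did not pass (adjusted p = 0.0743). The list's median was -0.39. Between capillary-like and endocardial-like cells, where 4.36% of all genes differed, 2 of 12 passed, Cav1 (1.34) and Cav2 (1.44), both higher. The values ran from -0.44 for Slc27a3 to 2.89 for Acsl3 (adjusted p = 0.216).

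Of 11 lipid-related transcription regulators, 6 were higher and 2 lower in EC-like cells, with a median of 1.34, where 18.3% of all genes differed and 10.6% were higher. Meox1, the paralog of Meox2, was higher by 2.36 (adjusted p = 0.00617). The E proteins, bHLH partners of the Tcf15 kind, were higher: Tcf4 by 2.02 (adjusted p = 6.36e-08), Tcf12 by 1.34 (adjusted p = 0.00866) and Tcf3 (adjusted p = 0.00475). Pparg (adjusted p = 0.0017), the adipocyte and endothelial PPAR, and Foxo1 (adjusted p = 0.000262) were also higher, and since the CM-like sum of P7 had at most 1 UMI of Tcf3, Pparg and Foxo1 no fold is given for them. The Tcf3 call was lost without that sum (adjusted p = 0.18) and the Tcf12 call without P14 replicate 2 (adjusted p = 0.0575). Ppara (-5.06, adjusted p = 9.71e-07) and Ppargc1a (-4.35, adjusted p = 4.51e-07), which drive fatty acid oxidation in CMs, were lower. Against endocardial-like cells 3 of 10 were higher in capillary-like cells, Meox1 by 1.97 (adjusted p = 0.0327), Tcf4 by 1.37 (adjusted p = 0.000135) and Pparg (adjusted p = 0.000717, at 0 in the endocardial-like cells of P7), and the lowest value was -0.52 for Tcf3. The Meox1 call there was lost without P4 replicate 1 or 2, P7 replicate 1 or P14 replicate 1 (adjusted p up to 0.117). Of all genes 2.36% were higher in capillary-like cells.

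Among genes of retinoid handling, Aldh1a1 and Aldh1a2, whose products make retinoic acid, did not pass between EC-like and CM-like cells, with log2 differences of 2.12 (adjusted p = 0.336) and 0.82 (adjusted p = 0.446). Neither did Rbp4, the retinol carrier of plasma, nor Crabp1 and Crabp2, which bind retinoic acid in the cell. Between capillary-like and endocardial-like cells Aldh1a1 stood at -1.45 (adjusted p = 0.51) and Aldh1a2 at 0.46 (adjusted p = 0.945), and neither passed, whereas Rbp7 was higher in capillary-like cells.

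The hairpin targets Jun, a subunit of AP-1. In CM-like cells Jun stood at 26.5 and 29.0 CPM with shJun and at 53.2 and 60.03 with shNT, both shJun sums below both shNT sums, though the difference did not pass (-1.08, SE 0.233, adjusted p = 1). In EC-like cells it stood at 68.5 and 151 with shJun and at 95.4 and 108 with shNT, which overlap (0.24, SE 0.781), so Jun was not seen to be lower in the endothelium. No member was called. In EC-like cells of the 2 shJun and 2 shNT animals (70 to 368 cells each) and in CM-like cells edgeR called 0% of genes, with 533 and 415 genes at an unadjusted p under 0.05 and 168 and 14 called by DESeq2. With the animal number as a block, since animals of 1 number shared chips, edgeR called 0 genes in EC-like and 15 in CM-like cells, none of them a member. EC-like Gpihbp1 stood at 1574 and 4313 CPM with shJun and at 1489 and 4539.8 with shNT (log2 difference 0.06, SE 0.785), so animal 2 of each hairpin was the higher. EC-like Lpl stood at 770.3 and 1833 with shJun and 1863 and 2248 with shNT (-0.52, SE 0.64, adjusted p = 0.999). In CM-like cells Lpl stood at 4784 and 4504 with shJun and 5505 and 5491 with shNT (-0.29, SE 0.206, adjusted p = 1). Neither Lpl difference passed. In CM-like cells without shNT replicate 2, where 1 shNT sum is assumed to vary like the shJun sums, Gpihbp1 (1.36, adjusted p = 0.0402) and Fabp4 (1.43, adjusted p = 0.0266) passed, where 1.08% of all genes did. The endothelial markers in CM-like cells summed to 255 CPM in shNT replicate 1, the shNT sum kept, to 904 in shNT replicate 2, and to 710 and 724 with shJun. They were thus higher with shJun in that fit, as Gpihbp1 and Fabp4 were, and their part was not tested.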

How the data were processed

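The authors deposited a table of UMI counts (1 row per well, 1 column per Ensembl gene, whole numbers, not normalized) and a well report for each of 18 chips. The study's pipeline split reads by well barcode, then trimmed, aligned (mm10) and counted them per gene. The submitters' processing notes name STAR 2.5.2b, featureCounts and Subread 1.4.6-p1. UMIs count molecules, so amplification does not inflate them, and chip totals were 11161784 to 133264535. Wells had been imaged for single live cells, and no doublet caller was run. Negative and positive control wells were left out of all comparisons.

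Cells with at least 500 genes and a log10 UMI total within 2 SD of their group's mean were kept. Each stage and each knockdown animal was clustered separately, without the 8 genes, the 4 lists of related genes or their values. Leiden clustering (leidenalg, igraph) was run on a graph of shared neighbours (Python 3.11.15, scipy 1.17.1, numpy 2.4.6, scikit-learn). It used 10 principal components, 30 neighbours and a resolution of 0.8, or 1 for knockdown animals. A cluster was named from at least 3 detected markers and left unnamed where another class led its top 10 genes or a second class scored at least 0.5 times the top score. UMIs were summed per class and sample (at least 20 cells) and tested with edgeR 4.0.16 (quasi-likelihood, TMM, filterByExpr, R 4.3.3), Benjamini-Hochberg adjusted over all genes. SE is the log2 difference divided by the root of F. DESeq2 1.42.0, other scalings, filters, cell calls and left-out replicates were alternatives. The procedure was tested on simulated data.

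The 8 genes, the related lists, the markers and the naming thresholds were chosen with earlier results of these data known. The text names the 8 members in each comparison, list genes that passed the threshold with each list's largest and smallest change, 3 endothelial markers and the 5 most similar genes. List genes are given in full for EC-like against CM-like and capillary-like against endocardial-like cells. The result of 1 gene of the retinoid list is not reported here. In the knockdown chips, cells of animals 1 of both hairpins shared chips, as did those of animals 2. Same-numbered deviations from the hairpin means had correlations of 0.0811 in EC-like cells (12542 genes) and 0.329 in CM-like cells (15375 genes). Replicate numbers at P4 to P28 follow the order of the samples and pair nothing. Replicate sums of 1 group differed by more than sampling noise.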

Additional observations from a re-analysis of the deposited data

Results flagged for a closer look

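Lpl in the macrophage-like sum of P28 replicate 1 stood at 1230.16 CPM, far from the 117, 235 and 247 of the other 3 samples. It was the 1 sum that stood apart among 24 groups of 4 sums tested, and about 1 in 20 such groups would do so by chance. Replicate 1 is a chip of the CM fraction with 36 macrophage-like cells.

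Wells marked as negative controls in the well reports held UMIs of 7 of the 8 genes. Over 90 such wells with 51790 UMIs in all (median 198 per well) there were 207 UMIs of Lpl, 40 of Cd36, 38 of Fabp4, 18 of Gpihbp1 and 4 of Rbp7, each above the 3 UMIs that a count of 0 would allow, and 2 each of Fabp5 and Meox2. The 91 positive control wells, with 52417 UMIs, held 95, 36, 43, 21 and 7 of the first 5. A single EC-like cell at P28 had a median of 7209.5 UMIs. In CPM the negative wells stood at 3997 for Lpl, 772 for Cd36, 734 for Fabp4 and 348 for Gpihbp1. The Lpl value lay above every EC-like and CM-like sum of P4 to P28, and the Gpihbp1 value within the range of its CM-like sums. How far such UMIs add to the levels in cells was not tested.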

How the results depend on the processing

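The number of members called, EC-like against CM-like, was 8 under every alternative that gave a value, against fibroblast-like cells 6 to 7, against macrophage-like cells 6 to 8, and capillary-like against endocardial-like 7 to 8. Of 444 member differences with 1 replicate left out, 419 kept direction and side of the threshold, 24 lost the call and 1 gained it. Of 403 under other alternatives 375 were kept, 20 lost the call, 6 gained it and 2 reversed. The Meox2 call of capillary-like against endocardial-like cells was lost with standardized one-by-one cell calls (1.55). Lpl against macrophage-like cells was called with no filter on low counts, at most 5000 UMIs per cell, sums per animal or a sample block.

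Stage calls moved most, and the cause was not tested. For EC-like P14 against P7 (1 member) none was called with at least 1000 genes per cell, standardized calls or the fit of all classes (0 each), and 0 to 1 with 1 replicate left out. EC-like P28 against P4 (0) gave 1 with DESeq2 and 1 with no filter. For CM-like P14 against P4 (2) the counts were 4 with DESeq2's size factors, 6 with DESeq2, 5 with no filter, 1 with at least 1000 genes, 4 with standardized calls, 0 with sums of at least 10 cells, 0 in the fit of all classes and 0 to 4 with 1 replicate left out, and with cells called one by one 2 other members, Lpl and Cd36, were called. For CM-like P28 against P4 (3) they were 6 with DESeq2, 1 with cells called one by one, 1 with standardized calls, 0 with sums of at least 10 cells, 1 in the fit of all classes and 0 to 4 with 1 left out, while Lpl was gained with no filter (adjusted p = 0.0331) and Tcf15 with sums per animal (adjusted p = 0.0314, and 0.0399 at P14). With cells called one by one Gpihbp1 reversed to -0.66 and Rbp7 to -0.57 there, in CM-like sums that may hold cells clustered as EC-like. CM-like shJun against shNT gave 0 to 2 with 1 left out. Genes called for P14 against P7 in EC-like cells ranged from 1 to 574, for P28 against P4 from 14 to 725, for P28 against P14 from 0 to 236, for P14 against P4 in CM-like cells from 29 to 1267, for P28 against P4 from 59 to 1136, between shJun and shNT from 0 to 168 in EC-like and 0 to 426 in CM-like cells, and for capillary-like against endocardial-like cells from 341 to 1052. EC-like against CM-like, fibroblast-like and macrophage-like cells gave 2269 to 4496, 1226 to 2447 and 1947 to 3397.

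Without thinning, the shares of cells with a UMI at P28 were 84.1%, 48.4% and 39.4% for Gpihbp1 and 71.0%, 94.9% and 85.0% for Lpl in EC-like, CM-like and fibroblast-like cells.

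With the animal number as a replicate block, 0 members were called between shJun and shNT in either class, as without the block, and 0 genes in EC-like and 15 in CM-like cells, against 0 without it.

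Cells called one by one on unscaled marker scores gave no EC-like sums, so that alternative has no EC-like value. Most cells clustered as EC-like thus bore other names there, and how many counted as CM-like is not given. Standardized calls and naming clusters with markers of a second class were added after the data were seen, as was leaving out the P7, or P7 and P28, sub-clusters. CM-like P7 rests on 21 cells and the P14 endocardial-like value on 1 sum, so precision is lowest there.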

Other observations

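Angptl4, whose product inhibits lipoprotein lipase, was the 1 of 10 tested genes of lipolysis and lipoprotein receptors that fell in EC-like cells between P4 and P28 (-3.38, SE 0.779, adjusted p = 0.0442). Of all genes 0.979% were called in that comparison. Angptl4 stood at 75.9 and 78.9 CPM at P4 and at 1.13, 0.738, 11.01 and 13.1 at P28, on 1 and 2 UMIs in replicates 1 and 2. The call was lost without 1 of 6 replicates (both of P4, both of P7, P28 replicates 2 and 4; adjusted p up to 0.249). In CM-like cells Angptl4 fell too (-4.87, adjusted p = 0.00082), and Pnpla2, an intracellular triglyceride lipase, rose by 2.70 (adjusted p = 0.00468, lost without either P4 replicate). Fabp3, the muscle fatty acid-binding protein, fell in EC-like cells (-2.68, adjusted p = 0.0485), the 1 of 12 tested genes of fatty acid entry, binding and activation to do so, and in CM-like cells (-1.91, adjusted p = 0.0383), where Cav1 and Cav2 rose by 2.27 and 3.72 (adjusted p = 0.0178 and 0.0182, both lost without P28 replicate 1 or either P4 replicate). The Fabp3 calls were lost without 1 of 7 replicates in EC-like cells (both of P4, both of P7, P28 replicates 2, 4 and 6; adjusted p up to 0.433) and 1 of 5 in CM-like cells (both of P4, both of P14, P28 replicate 5; up to 0.461). Fabp3 stands among the genes that CM-like cells held most, and the CM markers in EC-like cells summed to 13779 to 15954 CPM at P4 and 1189.65 to 18156 at P28. Their part in its fall was not tested.

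Against fibroblast-like cells, where Rbp7 had a log2 difference of 3.83, several genes of retinoid handling were lower in EC-like cells: Rbp4 (-5.06, adjusted p = 4.87e-05), Aldh1a1 (-4.36, adjusted p = 5.84e-05), Aldh1a2, which makes retinoic acid (-3.67, adjusted p = 3.11e-05), and Crabp1 (-3.73, adjusted p = 0.0393). The Crabp1 call was lost without P14 replicate 2 or P28 replicate 1 or 6 (adjusted p up to 1). Crabp2 did not pass (-1.30, adjusted p = 0.613). Of all genes 9.58% differed between EC-like and fibroblast-like cells.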
